A study of Mus musculus with 9 samples.

Results

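Fresh CFU-E (colony-forming unit-erythroid, a late erythroid progenitor) were compared with BFU-E (burst-forming unit-erythroid, an earlier progenitor) that had been cultured for 8 h with water as the vehicle. The question was how far that time in erythroid medium moves BFU-E toward the CFU-E profile. The comparison used 3 of the 9 libraries of the series and the 9893 genes, of 19840 gene names, that reached 1 or more normalised RPKM (the read count of a transcript for its length and the library depth, scaled between libraries) in at least 1 of the 3. The library of fresh BFU-E did not enter this filter or the calls against the cultures, and its values are given beside the others as the starting point. It did enter the gene set of the pairwise counts and the rule for genes outside the range of the fresh libraries. Scaling between libraries and the choice of 1 record per gene used all 9 libraries.

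All cells came from fetal liver of C57BL/6 mouse embryos at embryonic day 13.5 to 14.5. Every gate took Kit-positive cells and left out cells carrying CD34, CD41, CD16/32, Gr-1, CD3, Mac-1, B220 or Ter119 on the surface. Fresh CFU-E were the 20% of these cells highest in CD71, the transferrin receptor encoded by Tfrc, and received no agent. The CD71 sort culture started from the 10% lowest in CD71. The CD71/CD24a sort culture started from the 10% lowest in CD71 and in CD24a. Both cultures first had 4 h in StemSpan medium without serum, with erythropoietin at 2 U/mL, IGF-1 at 40 ng/mL and stem cell factor at 100 ng/mL, then water was added and RNA was taken after 4 h more. Fresh BFU-E were the 10% lowest in CD71, without culture or agent. That gate is the one of the CD71 sort, so no uncultured library of the CD71/CD24a gate enters here. Each condition is 1 library, the number of embryos behind it was not given, and the cultures differ in their gate and are not replicates of each other. No test across samples was therefore made and no p-value is given.

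Erythroid progenitors respond to stem cell factor through the receptor Kit and to erythropoietin through Epor, which signals through JAK2 and STAT5. As BFU-E become CFU-E they lose early progenitor genes such as Gata2 and take up iron through CD71, and the enzymes of heme synthesis and the proteins of the red cell membrane skeleton are built up under GATA1 and KLF1. Genes of sterol synthesis and lipoprotein uptake are known targets of the transcription factor SREBP-2, which is active when cell sterol is low.

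Recovered depth was 23.7 M reads for fresh CFU-E, 11.9 M for the CD71 sort culture, 18.5 M for the CD71/CD24a sort culture and 18.5 M for fresh BFU-E. A level of 3 reads on a transcript of 1 kb was 0.116, 0.248, 0.139 and 0.154 normalised RPKM in that order. Each difference was taken between values of log2(normalised RPKM + 1). For genes of low level this makes a change look smaller than it is. A gene was called when it differed by at least 2-fold (1 on this scale) in the same direction against both cultures. In bulk RNA, fewer cells of a type and less RNA per cell cannot be told apart. The library of the CD71/CD24a sort culture was higher for transcripts of low GC content and lower for those of high GC content. Over 5 equal groups of genes by transcript GC, the median difference of fresh CFU-E from this culture ran from -0.69 at 33.4% to 44.5% GC to 0.42 at 56.0% to 72.8% GC. Against the CD71 sort culture it ran from -0.29 to 0.10, and against fresh BFU-E from 0.14 to -0.21. Of the genes called higher in CFU-E, 12 lay in the lowest and 126 in the highest of these groups. The part of GC content in single genes was not tested. A repeat with levels centred by GC is given for some counts only, and it also moved counts of lists for which it is not given.

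**Figure D1:**
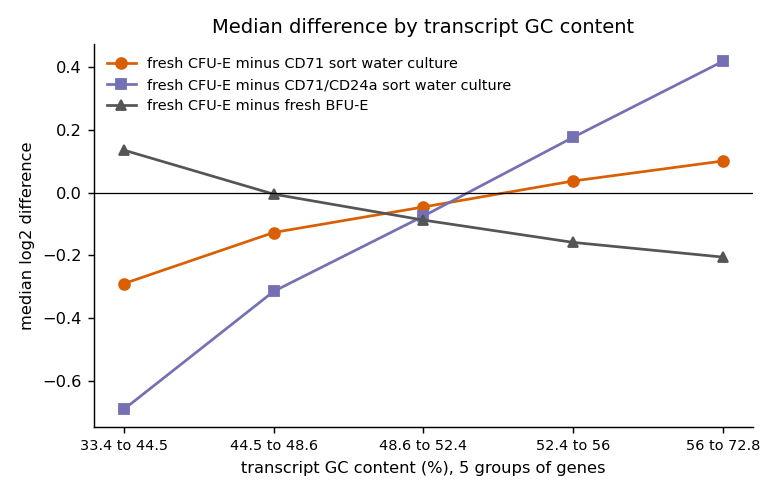
Median log2 difference between fresh CFU-E and each other library (y axis) in 5 groups of genes by transcript GC content in percent (x axis). The line for the CD71/CD24a sort water culture is the steepest, from -0.69 to 0.42.

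The markers of the sorted cells were present in all 4 libraries. Gata1, the erythroid master regulator, was at 164 normalised RPKM in fresh CFU-E, 136 in the CD71 sort culture, 133 in the CD71/CD24a sort culture and 169 in fresh BFU-E. Kit was at 83.0 in CFU-E, 45.4 and 43.3 in the cultures and 175 in BFU-E. Marker lists of other cell types differed in level. The 20 neutrophil and mast cell genes with a record summed to 5.31 normalised RPKM in CFU-E, 29.9 in the CD71 sort culture, 6.88 in the CD71/CD24a sort culture and 103 in BFU-E, and the 14 macrophage genes to 1.96, 2.20, 1.47 and 7.98 in the same order. The 13 megakaryocyte genes summed to 43.6, 117, 179 and 223, with Ppbp and Selp under 1 in all 4 libraries. Of these 13, 11 passed the filter, 4 were called lower in CFU-E (5.86% of all tested genes were) and 0 higher. Of the 11, 4 were under 1 normalised RPKM in CFU-E and could not be called higher. The medians were -0.54 against the CD71 sort culture and -1.24 against the CD71/CD24a sort culture. F2r, the thrombin receptor, had the highest level in the cultures, at 18.1, 58.9, 111 and 88.2. The 13 hepatocyte genes summed to 13.7, 3.95, 14.9 and 36.9, the 12 lymphoid genes to 1.35, 3.26, 2.49 and 10.3, and the 10 endothelial genes to 23.7, 14.0, 10.7 and 45.3. The largest neutrophil gene, Mpo, was at 2.09, 13.4, 4.51 and 71.5. The part of other cells in the differences given here was not tested. Of the 10 genes of the sort gates with a record 7 passed the filter, and 3 that the gates select against were called lower in CFU-E: Cd34, Itga2b (CD41) and Ptprc (CD45, which carries B220). Of the 7, 3 were under 1 normalised RPKM in CFU-E, Cd34 among them, and could not be called higher. Itga2b was at 2.12 in CFU-E, 13.8 and 17.9 in the cultures and 44.0 in BFU-E.

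After 8 h in culture BFU-E did not have the profile of fresh CFU-E. Of 10255 genes at 1 or more normalised RPKM in any of the 4 libraries, 1223 (11.9%) were at least 2-fold apart between CFU-E and the CD71 sort culture. The number was 2151 (21.0%) between CFU-E and the CD71/CD24a sort culture and 1554 (15.2%) between CFU-E and fresh BFU-E. The median absolute log2 difference was 0.34, 0.52 and 0.33 for these pairs. By the number of genes 2-fold apart, the CD71 sort culture was thus nearer to CFU-E than fresh BFU-E, and the CD71/CD24a sort culture was farther. At 4-fold the CD71/CD24a sort culture was nearer to CFU-E than fresh BFU-E, so its place depends on the cutoff. CFU-E was then higher in 132 genes and lower in 207 against this culture. Against fresh BFU-E the 4-fold counts were 70 and 351, and against the CD71 sort culture 64 and 210.

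The cultures also stood apart from fresh BFU-E. The CD71 sort culture was 2-fold apart from fresh BFU-E in 1542 genes and the CD71/CD24a sort culture in 2426. The cultures were the closest pair, with 439 genes (4.28%) apart. These pairs share libraries, so their counts are set side by side only. With levels centred by GC, CFU-E was 2-fold apart from the CD71 sort culture in 404 genes upward and 733 downward, from the CD71/CD24a sort culture in 637 and 879, and from fresh BFU-E in 425 and 962.

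**Figure D2:**
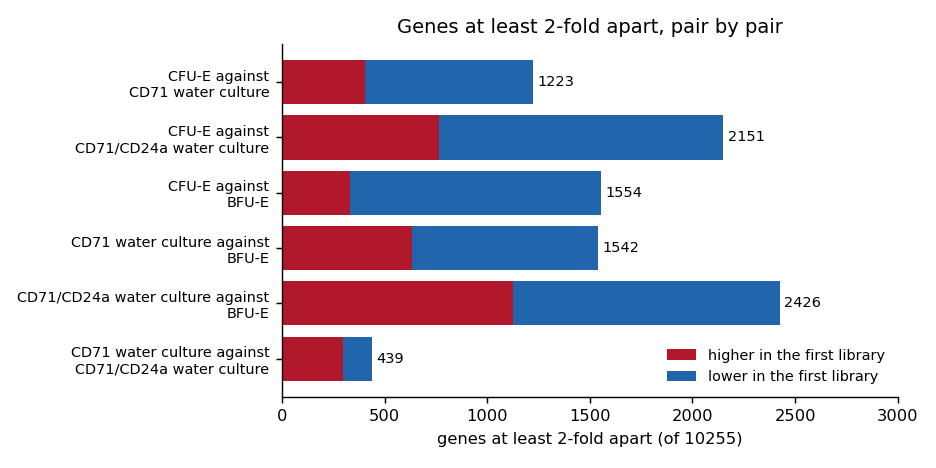
Number of genes at least 2-fold apart (x axis, of 10255) for 6 pairs of libraries (y axis), with genes higher in the library named first in red and lower in blue. Fresh CFU-E and the CD71 sort water culture differ in 1223 genes, and the water cultures differ from each other in 439.

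Against both cultures at once, 339 genes (3.43% of 9893) were higher in fresh CFU-E and 580 (5.86%) were lower, 919 (9.29%) in all. Against the CD71 sort culture alone 406 genes (4.1%) were higher in CFU-E and 817 (8.26%) lower. Against the CD71/CD24a sort culture alone 765 (7.73%) were higher and 1386 (14%) lower. Against fresh BFU-E, over 9947 genes, 330 (3.32%) were higher in CFU-E and 1224 (12.3%) lower. Of the 9893 genes, 880 were under 1 normalised RPKM in CFU-E and 156 passed the filter through CFU-E alone, so these could differ in 1 direction only.

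**Figure D3:**
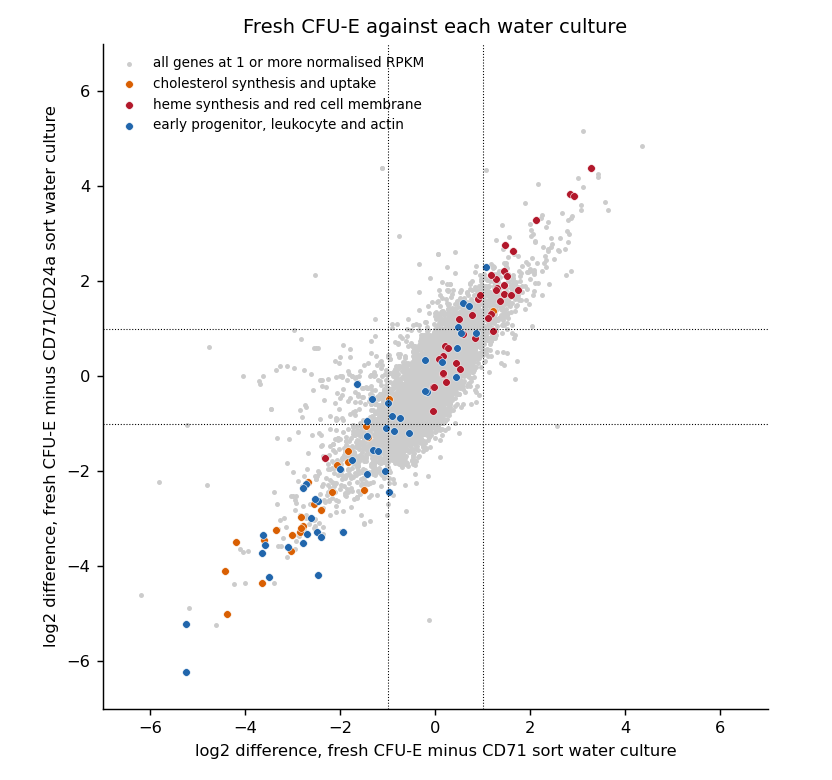
Each point is 1 of 9893 genes, with the log2 difference of fresh CFU-E from the CD71 sort water culture on the x axis and from the CD71/CD24a sort water culture on the y axis. Dotted lines mark 2-fold, and 22 of the 24 cholesterol genes lie beyond them at the lower left.

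Several transcripts that were low in fresh BFU-E had reached the CFU-E level in culture or passed it. Tfrc was at 104 normalised RPKM in fresh CFU-E, 201 in the CD71 sort culture, 228 in the CD71/CD24a sort culture and 18.9 in fresh BFU-E. Cells sorted for the lowest CD71 thus carried more Tfrc transcript after 8 h than the fresh cells sorted for the highest. The ratio of CFU-E to culture was 0.517 (exact 95% interval from recovered reads 0.505 to 0.530) for the CD71 sort and 0.457 (0.447 to 0.467) for the CD71/CD24a sort. These intervals, here and later, cover counting error only.

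Cd24a, which encodes the surface protein used in the second gate, was at 176 normalised RPKM in CFU-E, 165 and 103 in the CD71 and CD71/CD24a sort cultures, and 23.4 in fresh BFU-E. The culture whose gate left out CD24a-rich cells was the lower one. Cpox, an enzyme late in heme synthesis, was at 295 in CFU-E, 306 and 344 in the cultures, and 140 in fresh BFU-E. Fth1, the ferritin heavy chain that stores iron, was at 1662, 1703 and 1965 against 722 in fresh BFU-E. Scd1, a fatty acid desaturase, was at 38.5, 40.1 and 25.5 against 0.802. For these genes the cultures had reached the CFU-E level or lay less than 2-fold below it.

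Globin transcripts did not follow 1 course. Of 8 globin genes with a record, 6 passed the filter and 1 was called, where 9.29% of all tested genes were. It was the embryonic chain Hbb-bh1, at 0.316 normalised RPKM in CFU-E, 2.16 and 2.42 in the cultures and 0 in fresh BFU-E. Of the 6, 2 were under 1 normalised RPKM in CFU-E, Hbb-bh1 among them, and could not be called higher. With a filter at 3 normalised RPKM 4 globin genes passed and 0 were called. The adult beta chain Hbb-bt was at 74.0 in CFU-E, 822 in the CD71 sort culture, 119 in the CD71/CD24a sort culture and 14.3 in fresh BFU-E. Its near copy Hbb-b2 kept the same proportion to it in every library (76.0, 843, 122 and 14.6), so the 2 genes cannot be told apart by these counts.

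The adult alpha chain Hba-a1 was at 128 in CFU-E, 281 in the CD71 sort culture, 5.12 in the CD71/CD24a sort culture and 18.6 in fresh BFU-E. Its copy Hba-a2 had 127, 279, 5.08 and 18.5. Hba-a1 shares 79.9%, Hba-a2 91.9% and Hbb-bt 58.9% of its transcript words of 32 bases with other genes, so these levels depend on how reads with several matches were counted, which was not given. Summed over the globin list the level was 406 in CFU-E, 2229 and 255 in the cultures and 66.8 in fresh BFU-E. For alpha globin and for this sum, where CFU-E stand relative to cultured BFU-E therefore depends on which culture is taken. Hbb-bt, Hbb-b2 and Hbb-bh1 were lower in CFU-E than in either culture. In 4 of 6 globin genes both cultures were above both fresh libraries by any amount, as in 28.2% of 10255 genes.

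Heme synthesis genes were higher in fresh CFU-E in the main. Of 14, 8 were called higher in CFU-E and 0 lower, where 3.43% of all tested genes were higher, and the median difference was 1.14 against the CD71 sort culture and 1.31 against the CD71/CD24a sort culture. Over all 9893 genes those medians were -0.08 and -0.14. Against fresh BFU-E the median was 1.13, and the median of the cultures minus fresh BFU-E was 0.25 for the CD71 sort and -0.24 for the CD71/CD24a sort.

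The called genes included Alad, Uros, Urod, Ppox and Fech, which are enzymes of the pathway, Slc25a38, which carries glycine into mitochondria, and the mitochondrial transporter Abcb10. Alad had 306 normalised RPKM in CFU-E, 127 and 73.1 in the cultures, and 152 in fresh BFU-E. The ratio of CFU-E to culture for Alad was 2.42 (2.30 to 2.54) for the CD71 sort and 4.19 (3.99 to 4.40) for the CD71/CD24a sort. Uros had 34.7 in CFU-E, 12.0 and 9.76 in the cultures and 9.50 in fresh BFU-E. Alas2, the rate-limiting erythroid enzyme, was low in all 4 libraries at 6.33 in CFU-E, 5.57 and 6.11 in the cultures and 1.37 in fresh BFU-E. Without genes of shared sequence (10% or more of transcript words of 32 bases found in other genes) 7 of 12 were called higher, and with levels centred by GC 8 of 14.

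Red cell membrane genes were higher in fresh CFU-E in part. Of 25, 11 were called higher and 1, Car1, lower, where 3.43% of all tested genes were higher and 5.86% lower. The medians were 0.94 against the CD71 sort culture, 1.63 against the CD71/CD24a sort culture and 1.32 against fresh BFU-E. The largest gap of the list (the smaller of its differences from the cultures) was that of Rhd, which encodes the Rhesus D protein, at 159 normalised RPKM in CFU-E, 15.6 and 6.59 in the cultures and 27.6 in fresh BFU-E.

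Epb42, the membrane skeleton protein 4.2, was at 23.1 in CFU-E, 2.37 and 0.678 in the cultures and 1.63 in fresh BFU-E. The anion exchanger Slc4a1 (band 3) was at 11.8, 3.12, 1.06 and 4.12, and ankyrin, Ank1, at 131, 53.2, 36.4 and 42.0 in that order. The other called members were Sptb and Dmtn of the spectrin skeleton, the blood group genes Kel, Ermap and Icam4, the tetraspanin Tspan33, and Aqp1. Gypc, glycophorin C, was not called, at 64.1 in CFU-E, 60.3 and 49.2 in the cultures and 26.7 in fresh BFU-E. Car1, a cytosolic carbonic anhydrase and not a membrane protein, was at 10.5, 56.2, 36.9 and 82.5, and 24.3% of its transcript words occur in other genes.

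**Figure D4:**
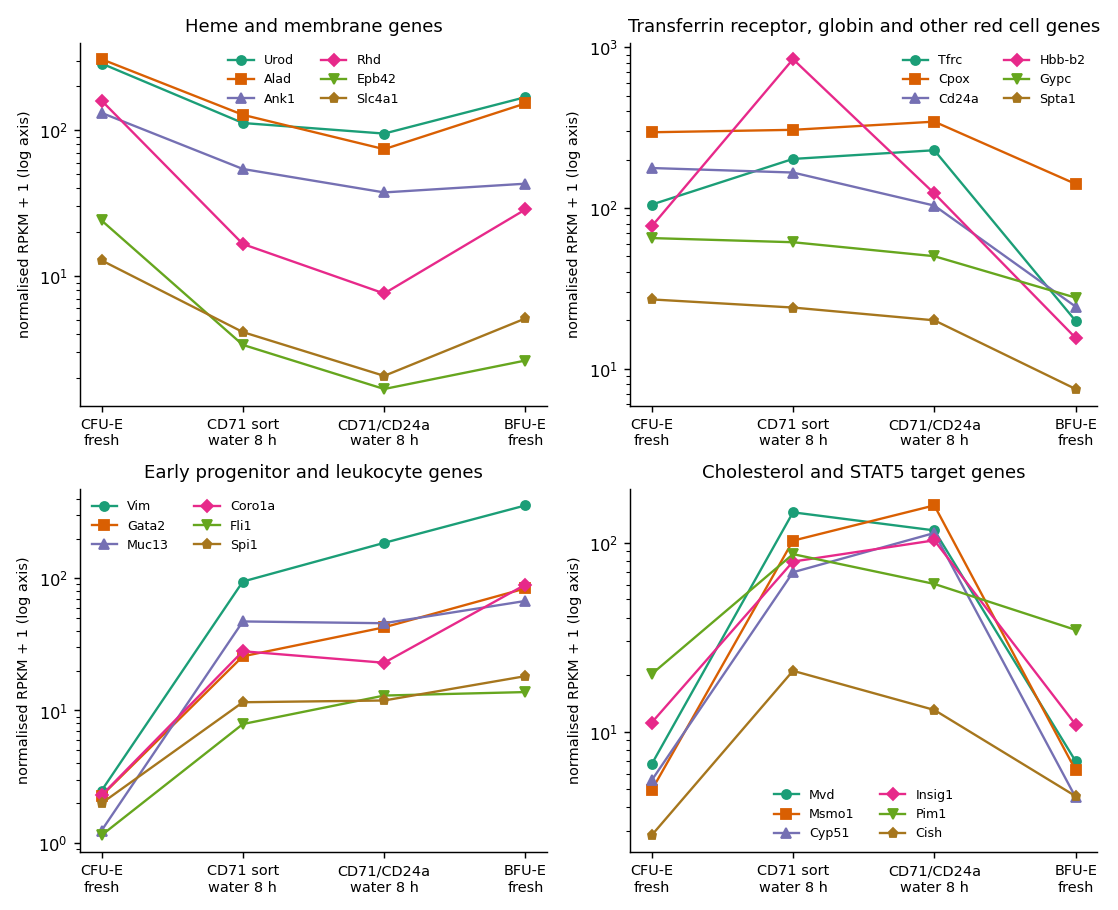
Level of 24 genes on a log axis of normalised RPKM + 1 (y axis) in fresh CFU-E, the CD71 sort water culture, the CD71/CD24a sort water culture and fresh BFU-E (x axis, left to right, lines only join the points of a gene). The membrane gene Rhd (159, 15.6, 6.59 and 27.6) is highest in CFU-E, while Mvd (5.74, 143, 115 and 5.99) is highest in the cultures.

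The promoters of the membrane genes were searched for the GATA motif, spelled AGATAA or TGATAA on either strand, in RefSeq windows (build GRCm38.p6) from 250 bases before to 50 after the transcript start. Of the 16 membrane genes with a window 7 (43.8%) held it, against 11.9% of the 7885 tested genes with a window and 21% of all 27025 genes in the table. Among the 7 were 5 genes called higher in CFU-E, namely Epb42, Ermap, Rhd, Kel and Icam4. Of the 264 genes called higher in CFU-E with a window 54 (20.5%) held it, and of the 450 called lower 73 (16.2%). The CACC box CCNCNCCC, searched likewise, was in 10 of the 11 heme genes with a window (90.9%) and in 72.9% of tested genes. This share was not particular to heme genes. Over the gene lists it ran from 33.3% in globin genes to 100% in p53 targets, with 92.6% in early progenitor genes. A match is a description of these letters and not a bound site. The windows of 3 membrane genes are shown, with the motif in capitals: Rhd at chr4:134864286-134864585 on the plus strand, Icam4 at chr9:21029182-21029481 on the plus strand and Kel at chr6:41704276-41704575 on the minus strand.
Rhd: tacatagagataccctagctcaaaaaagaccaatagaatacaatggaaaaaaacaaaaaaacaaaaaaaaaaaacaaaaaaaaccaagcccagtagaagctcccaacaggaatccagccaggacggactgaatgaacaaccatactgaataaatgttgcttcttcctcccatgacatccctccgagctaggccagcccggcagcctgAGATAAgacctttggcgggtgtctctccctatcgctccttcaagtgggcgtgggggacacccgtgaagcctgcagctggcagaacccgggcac
Icam4: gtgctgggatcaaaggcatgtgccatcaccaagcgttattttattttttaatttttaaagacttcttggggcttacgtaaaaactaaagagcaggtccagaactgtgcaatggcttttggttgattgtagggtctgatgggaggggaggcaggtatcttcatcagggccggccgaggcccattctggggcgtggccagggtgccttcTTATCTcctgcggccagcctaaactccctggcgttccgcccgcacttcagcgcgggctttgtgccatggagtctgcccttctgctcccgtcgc
Kel: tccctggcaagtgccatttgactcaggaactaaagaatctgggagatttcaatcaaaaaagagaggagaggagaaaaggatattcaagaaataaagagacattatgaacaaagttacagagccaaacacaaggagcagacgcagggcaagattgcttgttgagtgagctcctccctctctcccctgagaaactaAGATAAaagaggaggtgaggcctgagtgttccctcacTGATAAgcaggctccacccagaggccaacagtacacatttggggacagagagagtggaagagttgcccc

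The regulators of the erythroid program divided. Of 21, 4 were called higher in fresh CFU-E (3.43% of all tested genes were) and 0 lower. Epor, the erythropoietin receptor, was at 202 normalised RPKM in CFU-E, 80.5 and 43.5 in the cultures and 87.0 in fresh BFU-E. Klf1, the erythroid Krüppel-like factor, was at 337, 165, 75.4 and 187. Trim10 was at 16.9, 1.97, 1.90 and 1.13, and the factor Klf3 at 39.0, 18.4, 9.65 and 17.5.

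In 14 of the 21 both cultures lay below both fresh libraries by any amount, an order that 25.3% of the 10255 genes reaching 1 normalised RPKM in any of the 4 libraries had. Ldb1, a cofactor of the GATA1 complex, was at 213 in CFU-E, 135 and 114 in the cultures and 252 in fresh BFU-E. Gfi1b was at 174, 90.6, 48.8 and 123, and Zfpm1, the GATA1 partner FOG1, at 254, 204, 64.7 and 264. Zfp36l2, an RNA-binding protein known to favour BFU-E self-renewal, was at 74.0 in CFU-E, 62.9 and 32.2 in the cultures and 244 in fresh BFU-E. Nr3c1, the glucocorticoid receptor, was at 14.2, 10.9, 11.7 and 23.6. With levels centred by GC 3 regulators were called higher and 1 lower.

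The promoters of Epor and Klf1 each held the GATA motif and were among 6 of the 16 regulators with a window (37.5%) that did. They are shown because both genes were called higher in CFU-E, Epor at chr9:21963527-21963826 on the minus strand and Klf1 at chr8:84901732-84902031 on the plus strand, with the motif in capitals.
Epor: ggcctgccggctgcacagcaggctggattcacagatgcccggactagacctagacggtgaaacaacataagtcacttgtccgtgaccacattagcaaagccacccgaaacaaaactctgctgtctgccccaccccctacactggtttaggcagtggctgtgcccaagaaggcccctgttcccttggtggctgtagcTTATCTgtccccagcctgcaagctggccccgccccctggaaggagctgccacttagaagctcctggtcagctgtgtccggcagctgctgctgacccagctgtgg
Klf1: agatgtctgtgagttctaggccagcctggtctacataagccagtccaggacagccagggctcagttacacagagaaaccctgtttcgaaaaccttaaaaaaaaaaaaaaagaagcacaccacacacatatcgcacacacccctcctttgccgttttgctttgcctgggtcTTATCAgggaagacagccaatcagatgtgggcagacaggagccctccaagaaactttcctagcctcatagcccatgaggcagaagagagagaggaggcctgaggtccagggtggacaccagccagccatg

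Early progenitor genes were in part lower in fresh CFU-E, mostly with the cultures between the fresh libraries. Of 36 genes with a record 27 passed the filter, 15 were called lower in CFU-E (5.86% of all tested genes were) and 1, Eng, higher. Of the 27, 13 were under 1 normalised RPKM in CFU-E. Over all 36 the medians were -0.81 against the CD71 sort culture, -0.72 against the CD71/CD24a sort culture and -1.74 against fresh BFU-E. In 21 of 31 members at 1 or more in any of the 4 libraries both cultures lay between CFU-E and fresh BFU-E. Of all 10255 genes at that level 17.6% had this order.

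Gata2, the factor that GATA1 replaces during erythroid maturation, was at 1.26 normalised RPKM in CFU-E, 24.7 and 41.6 in the cultures and 82.9 in fresh BFU-E. The ratio of CFU-E to culture was 0.0511 (0.0418 to 0.0619) for the CD71 sort and 0.0304 (0.0250 to 0.0365) for the CD71/CD24a sort. Spi1 (PU.1) was at 0.985, 10.5, 10.9 and 17.2, and Fli1 at 0.138, 6.89, 12.0 and 12.8.

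Cd34 was at 0.204 in CFU-E, 2.27 and 1.87 in the cultures and 12.8 in fresh BFU-E. Muc13, a membrane mucin, had the widest gap of the list by the smaller of its differences, at 0.234 in CFU-E, 46.2 and 44.7 in the cultures and 66.4 in fresh BFU-E. Meis1 had 0.366, 4.27, 12.2 and 9.80, and Runx1 6.42, 17.5, 20.8 and 16.7, so for these at least 1 culture was above fresh BFU-E. Myb was not called, at 65.7 in CFU-E, 73.8 and 82.2 in the cultures and 220 in fresh BFU-E. Hoxa9 and Flt3 did not pass the filter, and in fresh BFU-E they were at 2.16 and 3.66.

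Genes of the leukocyte surface and actin cytoskeleton ran the same way. Of 24 with a record 20 passed the filter and 11 were called lower in fresh CFU-E (background 5.86%), 0 higher. Of the 20, 6 were under 1 normalised RPKM in CFU-E and could not be called higher. The medians were -1.33 and -1.26 against the cultures and -2.19 against fresh BFU-E. Vim, the intermediate filament vimentin, was at 1.47 normalised RPKM in CFU-E, 93.5 and 184 in the cultures and 355 in fresh BFU-E. Coro1a, an actin-binding coronin of blood cells, was at 1.28, 27.1, 22.0 and 88.6. Laptm5, a lysosomal protein of blood cells, was at 4.77, 71.6, 74.5 and 138, and the formin Fmnl1 at 0.859, 21.3, 20.7 and 55.2. In 14 of 22 members at 1 or more in any of the 4 libraries both cultures lay between the fresh libraries. That order held in 17.6% of the 10255 genes. Without genes of shared sequence the median against the CD71/CD24a sort culture was -0.95, and 10 of 21 genes were called lower.

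Several genes with the widest gaps below the cultures were also higher in the cultures than in fresh BFU-E. Il4ra, an interleukin-4 receptor chain, was at 0.462 in CFU-E, 26.5 and 29.2 in the cultures and 3.84 in fresh BFU-E. Lat, an adaptor of antigen receptor signalling, was at 0.313, 31.2, 48.3 and 15.8. Csf2rb, the shared beta chain of cytokine receptors, was at 0.0891, 17.9, 12.4 and 1.54, with 24.3% of its words in other genes. The interferon-inducible membrane genes Ifitm3 and Ifitm1 were at 1.31, 83.6, 67.1 and 32.5 and at 0.0550, 76.7, 24.6 and 8.29, with 18.5% and 14.9% shared. In Ifitm1 the CFU-E level rests on 1 read. Pimreg and Parm1, the other genes of the 15 widest, were at 0.711 and 0.741 in CFU-E and at 21.4 to 34.1 in the cultures.

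Both cultures stood outside the range of the fresh progenitors in 240 genes. Of 10255 genes 169 (1.65%) were at least 2-fold above both fresh libraries and 71 (0.692%) at least 2-fold below. Sequence sharing was more frequent in the genes above: 77 of the 162 genes above the fresh range with a value (47.5%) shared 10% or more of their transcript words with other genes, against 13.7% of all genes and 2.94% of those below. Without genes of shared sequence the counts were 92 above and 69 below. The part of shared sequence in single genes was not tested.

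Cholesterol synthesis and uptake was the list that stood furthest above. Of 24 genes with a record, 1 of which passed the filter through CFU-E alone, 22 were called lower in fresh CFU-E (background 5.86%) and 1 higher. Of the 24, 1 was under 1 normalised RPKM in CFU-E and could not be called higher, and 21 were 2-fold above both fresh libraries. The medians were -2.74 against the CD71 sort culture, -2.88 against the CD71/CD24a sort culture and 0.08 against fresh BFU-E. The summed level was 363 normalised RPKM in CFU-E, 2272 and 2230 in the cultures and 327 in fresh BFU-E. The fresh libraries lay close together in this list, and so did the cultures.

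Mvd, mevalonate diphosphate decarboxylase, was at 5.74 normalised RPKM in CFU-E, 143 and 115 in the cultures and 5.99 in fresh BFU-E. The ratio of CFU-E to culture for Mvd was 0.0400 (0.0352 to 0.0455) and 0.0500 (0.0440 to 0.0567). Msmo1 and Cyp51, sterol demethylation enzymes, were at 3.92, 101, 156 and 5.26 and at 4.54, 68.7, 111 and 3.51. The called members ran from the mevalonate genes Mvk, Mvd and Fdps through Sqle and Lss to Dhcr7.

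Insig1, which holds SREBP in the endoplasmic reticulum, was at 10.2 normalised RPKM in CFU-E, 78.3 and 102 in the cultures and 9.91 in fresh BFU-E. Stard4, a sterol carrier, was at 15.3, 84.8, 113 and 16.3. Srebf2, the gene of SREBP-2, was not called, at 54.2, 107, 75.4 and 59.6. Fdps (50.9%), Acat2 (52.8%), Idi1 (36.7%) and Fdft1 (18.5%) share sequence with other genes. Without them 18 of 20 were called lower and 17 were above both fresh libraries, and with levels centred by GC 22 of 24 were called lower.

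The sterol motif TCACNCCAC, searched on either strand, was in the promoter window of 0 of the 16 cholesterol genes that had one, against 1.33% of tested genes. These letters are 1 spelling of a variable element. The E-box CACGTG was in 4 of the 16 (25%), against 12.6% of tested genes.

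Aacs, which makes acetoacetyl-CoA for lipid synthesis and is not on the list, had 7.39 normalised RPKM in CFU-E, 99.2 and 92.7 in the cultures and 9.96 in fresh BFU-E. Fatty acid synthesis genes were lower in fresh CFU-E in part. Of the 15 genes on that list 5 were called lower in CFU-E (Fasn, Acly, Elovl5, Elovl6 and Me1; background 5.86%) and 1, Mrap, higher (background 3.43%). Mrap is on the list but is not an enzyme of fatty acid synthesis, and with levels centred by GC 0 were called higher. Of the 15, 1 was under 1 normalised RPKM in CFU-E and could not be called higher. Above both fresh libraries lay 4 of the 15, against 1.65% of 10255 genes. Fasn, fatty acid synthase, was at 85.2, 319, 206 and 89.4, and Acly, which supplies acetyl-CoA, at 81.4, 256, 268 and 109. Srebf1 was not called, at 99.3 in CFU-E, 50.8 and 24.1 in the cultures and 58.5 in fresh BFU-E. Of the 10 efflux and lipid carrier genes 7 passed the filter, 1 of them under 1 normalised RPKM in CFU-E. The 1 gene called was Apoe, at 13.5, 56.6, 70.1 and 862, so that its culture levels lay between those of the fresh libraries.

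Targets of cytokine signalling through STAT5 were lower in fresh CFU-E in part. Of 18 genes, 16 of which passed the filter, 5 were called lower (Cish, Socs1, Pim1, Id1 and Ccnd2; background 5.86%) and 0 higher, with medians of -1.06 and -0.56 against the cultures. Of the 16, 3 were under 1 normalised RPKM in CFU-E and could not be called higher. In 11 of the 16 both cultures were above both fresh libraries by any amount, as in 28.2% of 10255 genes. Cish, a feedback inhibitor of the pathway, was at 1.84 normalised RPKM in CFU-E, 20.0 and 12.0 in the cultures and 3.57 in fresh BFU-E. Pim1, a survival kinase, was at 19.2, 85.8, 59.4 and 33.5, and Id1 at 8.52, 41.5, 26.7 and 7.34. Socs3, Pim2 and Osm were past 2-fold against the CD71 sort culture alone: Pim2 was at 2.40 in CFU-E, 22.8 and 5.15 in the cultures and 3.10 in fresh BFU-E.

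The promoter of Cish holds the STAT motif TTCNNNGAA as a pair just after the transcript start. Of the 13 listed genes with a window 3 (23.1%) held this motif, against 8.05% of tested genes. Over the gene lists the share ran from 0% in heme genes, among others, to 33.3% in glucocorticoid-induced genes. The window lies at chr9:107296409-107296708 on the plus strand, with the motifs in capitals.
Cish: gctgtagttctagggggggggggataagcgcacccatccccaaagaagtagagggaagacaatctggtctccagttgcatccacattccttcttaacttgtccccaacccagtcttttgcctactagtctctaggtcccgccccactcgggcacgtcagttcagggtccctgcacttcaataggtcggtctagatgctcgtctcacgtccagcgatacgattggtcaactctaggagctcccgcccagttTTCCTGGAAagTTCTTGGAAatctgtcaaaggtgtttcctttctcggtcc

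Stress-response lists were mostly within 2-fold. Of 25 ATF4 and amino acid response genes 5 were called lower in fresh CFU-E (Chac1, Trib3, Slc7a11, Mthfd2 and Nupr1) and 1 higher (Sesn2). Over all tested genes 5.86% were called lower and 3.43% higher. Of the 24 listed genes that passed the filter, 5 were under 1 normalised RPKM in CFU-E and could not be called higher. Trib3, a pseudokinase induced by amino acid stress, was at 0.489 normalised RPKM in CFU-E, 7.05 and 7.33 in the cultures and 0.597 in fresh BFU-E. Nupr1, a stress-induced nuclear protein, was at 0.185, 5.78, 10.2 and 1.14, of which the CFU-E level rests on 4 reads. Of 19 p53 targets, 12 of which passed the filter, 1 was called lower: Cdkn1a, the cell cycle inhibitor p21, at 0.586, 10.6, 15.4 and 1.79. Of the 12, 2 were under 1 normalised RPKM in CFU-E, Cdkn1a among them, and could not be called higher.

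Of 18 heat shock genes 1 was called, Dnaja1, with 27.4% of its words shared, and of 8 genes without shared sequence 0 were. For this list and the next ones, the shares over all tested genes were 5.86% lower and 3.43% higher in CFU-E. Of 24 HIF targets 5 were lower in CFU-E, among them Egln3, Pfkfb3, Hk2 and Stc2. Called higher was 1, the pyruvate dehydrogenase kinase Pdk1 at 46.8, 20.3, 22.5 and 24.8. Of the 23 HIF targets that passed the filter, 4 were under 1 normalised RPKM in CFU-E and 2 passed through CFU-E alone. Of 18 glycolysis genes 16 passed the filter, and 1 of these was under 1 normalised RPKM in CFU-E. Pfkl and Pfkm were higher in CFU-E, and Pfkp and Pkm lower. The phosphofructokinase isoforms thus differed in direction: Pfkl was at 112 in CFU-E, 54.4 and 41.3 in the cultures and 98.5 in fresh BFU-E, and Pfkp at 3.76, 15.01, 17.0 and 9.51.

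Immediate early and glucocorticoid-induced genes were called in either direction, where 3.43% of all tested genes were higher in CFU-E and 5.86% lower. Of 23 immediate early genes, 13 of which passed the filter, 3 were higher in fresh CFU-E (Jun, Btg2 and Dusp1) and 2 lower (Fosl1 and Egr1). Of the 13, 3 were under 1 normalised RPKM in CFU-E and 1 passed through CFU-E alone, so these could be called in 1 direction only. Jun was at 5.49 normalised RPKM in CFU-E, 2.04 and 1.69 in the cultures and 53.4 in fresh BFU-E, and Dusp1 at 6.68, 2.33, 1.59 and 24.3. Fos did not pass the filter, at 0.535, 0.118, 0.0661 and 11.5. Of 20 glucocorticoid-induced genes, 14 of which passed the filter, 3 were higher in CFU-E (Mt2, Tgm2 and Dusp1) and 2 lower (Tsc22d3 and Zbtb16). Of the 14, 2 were under 1 normalised RPKM in CFU-E and could not be called higher. Tsc22d3 was at 2.39, 7.25, 5.83 and 10.8. Of the 16 RTK-MAPK feedback genes, 9 of which passed the filter, 1 was called lower, Dusp2. Of the 9, 2 were under 1 normalised RPKM in CFU-E and could not be called higher.

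No gene of the growth machinery was called against both cultures. Of 25 DNA replication genes, 22 mitosis genes, 25 respiratory chain genes and 24 ribosome biogenesis genes, 0 were called in either direction. Among all tested genes 9.29% were called. With levels centred by GC 1 ribosome biogenesis gene was called lower in CFU-E. Medians against the CD71 and CD71/CD24a sort cultures were 0.17 and 0.33 for replication, 0.08 and 0.00 for mitosis and 0.20 and 0.31 for the respiratory chain. For ribosome biogenesis they were -0.57 and -0.38, and in 21 of its 24 genes both cultures were above both fresh libraries by any amount, against 28.2% of 10255 genes. Mcm6, a subunit of the replicative helicase, was at 193 normalised RPKM in CFU-E, 172 and 164 in the cultures and 191 in fresh BFU-E. Cdk1, the mitotic kinase, was at 34.5, 35.0, 35.1 and 36.3. With 1 library each, these values do not show that the levels are equal.

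Cell cycle inhibitors were called in both directions: of 15, Cdkn1b, Cdkn2c and Btg2 were higher in fresh CFU-E and Cdkn1a lower. Among all tested genes 3.43% were called higher in CFU-E and 5.86% lower. Of the 15, 12 passed the filter. Of these, 2 passed through CFU-E alone and 2, with Cdkn1a, were under 1 normalised RPKM in CFU-E, so these could be called in 1 direction only. Cdkn1b, which encodes p27, was at 5.70 normalised RPKM in CFU-E, 2.19 and 2.30 in the cultures and 7.64 in fresh BFU-E. Of 14 MHC class I and immunoproteasome genes H2-K1 and Psmb8 were lower in CFU-E and Ifngr1 higher. In CFU-E 3 of the 14 were under 1 normalised RPKM. Psmb8, an immunoproteasome subunit, was at 0.442, 13.4, 12.5 and 45.6. Of 13 late erythroblast genes 4 were called higher in CFU-E (Slc4a1, Epb42, Fech and Tmcc2) and 0 lower. Slc4a1 and Epb42 are also on the membrane list, and Fech is on the heme list. Of the 13, 1 passed the filter through CFU-E alone and could not be called lower. The levels of the 13 summed to 498, 1316, 378 and 289, most of it globin in the CD71 sort culture. Of 14 iron genes Tfr2, the second transferrin receptor, and the iron exporter Slc40a1 were higher in CFU-E; Slc40a1 was at 22.8, 7.93, 7.99 and 6.00.

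**Figure D5:**
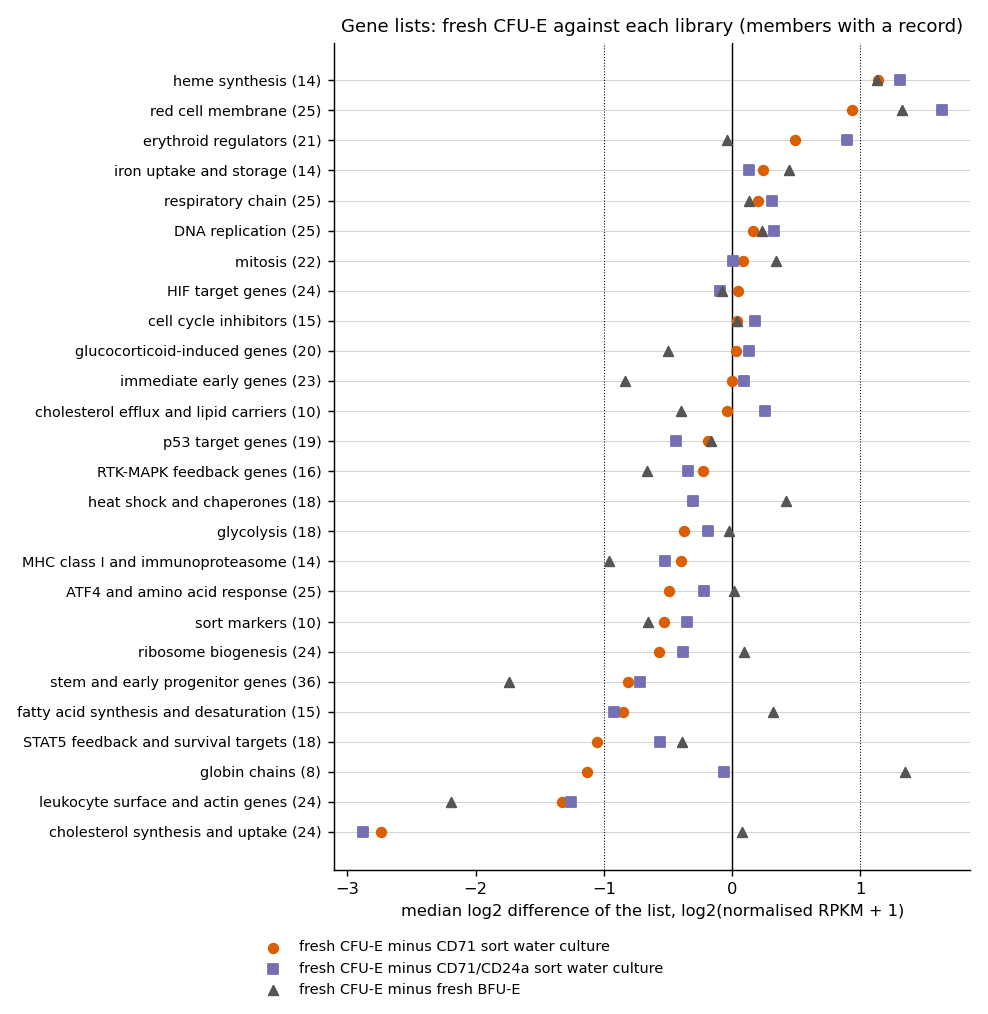
Median log2 difference of 26 gene lists (y axis, number of genes with a record in brackets), fresh CFU-E minus each other library (x axis), with dotted lines at 2-fold. Cholesterol genes lie at -2.74 and -2.88 against the cultures and at 0.08 against fresh BFU-E, while heme synthesis lies at 1.14, 1.31 and 1.13.

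The genes with the widest gap in favour of fresh CFU-E were not all members of the erythroid lists. Acp5, an iron-containing acid phosphatase, led with 78.6 normalised RPKM in CFU-E, 2.92 and 1.74 in the cultures and 15.4 in fresh BFU-E. Sphk1, a sphingosine kinase, was at 112, 9.55, 5.12 and 11.9. Rgcc, a regulator of the cell cycle, was at 155, 17.1, 3.33 and 7.54, and C1qtnf12 at 165, 19.8, 8.18 and 41.3.

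The metal transporter Slc30a10 was at 26.6 in CFU-E, 2.30 and 1.27 in the cultures and 3.72 in fresh BFU-E. Aqp3, a water and glycerol channel, was at 25.7, 2.70, 1.65 and 1.27. Nags, which makes N-acetylglutamate, was at 22.2, 1.14, 0.204 and 4.35, and Gjb2, a gap junction protein, at 11.8, 0.0699, 0 and 0.825. The nuclear receptor Rxra was at 21.4, 2.20, 1.82 and 7.67. Rab3il1 and Lrrc56, which complete the leading 15 with Stard10, Rhd, Aqp1 and Epb42, were at 25.5 and 14.7 in CFU-E and at 0.518 to 2.16 in the cultures.

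Genes below the fresh range in both cultures were led by Aqp1, the water channel of the red cell membrane. It was at 198 normalised RPKM in CFU-E, 25.2 in the CD71 sort culture, 13.3 in the CD71/CD24a sort culture and 219 in fresh BFU-E. The ratio of CFU-E to culture was 7.85 (7.31 to 8.44) and 14.9 (13.8 to 16.0), against 0.905 (0.882 to 0.928) for CFU-E to fresh BFU-E. Stard10, a lipid transfer protein, was at 81.8, 5.69, 6.32 and 32.3. The protease gene Prss50 was at 48.3, 9.43, 3.65 and 43.6, Ndufa4l2 at 28.5, 5.55, 0.767 and 24.9, and Mylk3, a myosin light chain kinase, at 19.7, 3.29, 2.15 and 15.1. Zfp1, Cmpk2, Ctse and Ypel3, the remaining genes of the leading 10, were at 4.17 to 16.4 in CFU-E, 0.0862 to 3.37 in the cultures and 5.29 to 13.8 in fresh BFU-E.

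Above the fresh range, the leading 10 genes by the same rule were Mvd, Msmo1, Cyp51, Fdps, Lss, Aacs, Fdft1, Sc5d, Insig1 and Nsdhl, of which 9 are on the cholesterol list. Sc5d, which acts late in the route, was at 4.23 normalised RPKM in CFU-E, 36.9 and 49.7 in the cultures and 3.23 in fresh BFU-E. Lss, lanosterol synthase, was at 15.6, 169, 155 and 10.8. In addition, 5 genes were 2-fold apart in opposite directions against the cultures: 1 (0.0101%) was higher in CFU-E than in the CD71 sort culture and lower than in the CD71/CD24a sort culture, and 4 (0.0404%) the reverse.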

How the data were processed

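Paired-end mRNA sequencing of 9 libraries was deposited, 1 per condition, and 4 enter the comparisons here. The deposited values are RPKM per RefSeq transcript record, made by the authors. The submitters' processing notes name genome build mm9. Which aligner and counter were used, and the treatment of multiply matching reads and of strand, are not given in the sources used here. Each table held 23041 records, of which 22397 took a symbol from RefSeq and 114 from GENCODE, and 530 had none. For a gene with several records (2158 names) the record with the highest mean was kept. The CD71/CD24a sort table held 7355 values of exactly 1 and no 0, and these were read as 0. It was the only table of the 4 with such values. No other per-sample column was present in the tables (0).

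Libraries were scaled by median-ratio factors over 6888 genes (1.09 for CFU-E, 1.02 for the CD71 sort culture, 1.17 for the CD71/CD24a sort culture and 1.06 for BFU-E). The spacing of low values gave the depth, and of these values 67.0% to 68.8% came out as whole reads within 0.1 reads, against 20% by chance, so counts were used for intervals only and no count test was run. Transcript lengths came from another build. Differences are log2(normalised RPKM + 1), with a filter of 1 normalised RPKM in any library compared. Ratios have exact Clopper-Pearson 95% intervals.

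Members and gene lists were chosen with earlier results of these data known. Named genes were the 15 with the largest smaller-of-2 difference in each direction, the 10 in each direction outside the fresh range, the genes with opposite directions and members of the lists. Listed names without a record (such as Ahsp and Hmgcs1) were not used here, and some genes are not reported here. Promoter windows came from RefSeq (GRCm38.p6), and 9667 of the 9893 tested genes (97.7%) had a transcript GC value. Alternatives were scaling, pseudocount, filter, fold, culture and record choice, with GC content and shared sequence added after seeing the data. The scripts were tested on simulated data. Python 3.11.15, numpy 2.4.6, pandas 2.3.3, scipy 1.17.1 and matplotlib 3.10.9 were used.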

Additional observations from a re-analysis of the deposited data

Results flagged for a closer look

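In 5 genes fresh CFU-E differed 2-fold or more from the cultures in opposite directions, and the difference between the cultures was not tested. The values of 4 of them follow. Hba-a1, an alpha globin, differed by 4.40 on the log2 scale from the CD71/CD24a sort culture and by -1.13 from the CD71 sort culture, and its copy Hba-a2 by 4.39 and -1.13. Tubb3, a tubulin gene, differed by 1.20 and -1.28, at 3.45 normalised RPKM in CFU-E, 9.78 in the CD71 sort culture, 0.937 in the CD71/CD24a sort culture and 1.78 in fresh BFU-E. Rpph1, the RNA of ribonuclease P, differed by -1.04 and 2.56, at 9.65, 0.811, 20.9 and 4.37 in the same order, and shares 70.8% of its transcript words with other genes.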

How the results depend on the processing

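In this section, named genes are those with the widest gaps, those leading outside the fresh range and those with opposite directions. Genes named only as members of a list were rerun with their list and not one by one. No list median or named-gene difference past 2-fold changed sign under the alternatives run. List medians nearer 0 did in 10 cases, all of which were at most 0.38 in size as reported. Against the CD71/CD24a sort culture, globin was at -0.06 as reported, 1.86 with a filter at 3 and 0.10 with a pseudocount of 0.1. Without genes of shared sequence glycolysis was at 0.08 and 0.18 against the cultures (-0.38 and -0.19 as reported) and heat shock genes at 0.22 against the CD71/CD24a sort culture (-0.30 as reported). The medians of mitosis, cholesterol efflux, immediate early genes and HIF targets also changed sign and stayed within 0.16 of 0. Of the counts, 85 stayed within 1.5 times the reported value and 13 did not. Of the list medians 445 were unchanged by the rule used, which asked for a shift under 1.5-fold and the same side of 2-fold, and of the named-gene differences 816 were. Of the rest 37 were larger in size with a pseudocount of 0.1, in 21 genes such as Gjb2, Nags, Muc13, Lat and Csf2rb. With records summed Hba-a1 and Hba-a2 were at -0.83 and 2.49 against the cultures (-1.13 and 4.40 for Hba-a1 as reported), and Ifitm1 and Ypel3 differed more. Centred by GC, Stard10, Nags and Prss50 differed less from the CD71/CD24a sort culture, Tubb3 was at 0.86 and no longer past 2-fold, and Rpph1 differed more. With a listed 1 kept as 1, Gjb2 was at 2.79. With a pseudocount of 0.1, 1005 genes were lower in CFU-E than in both cultures, 1254 lower than in the CD71 sort culture, 273 above and 152 below both fresh libraries; the medians were -1.82 and -1.64 for early progenitor genes and -2.35 and -2.48 for leukocyte genes. With a filter at 3, the medians were -2.29 and 1.86 for globin, -1.32 and -1.95 for early progenitor genes and -2.08 and -2.72 for leukocyte genes. At 1.5-fold 828 genes were higher and 1401 lower in CFU-E, and at 4-fold 56 and 123. Against the CD71/CD24a sort culture alone the counts were 765 and 1386. Against the CD71 sort culture, the membrane median was 1.03 with no scaling and the globin median -0.83 with records summed. Without genes of shared sequence, 92 genes lay above both fresh libraries, and the medians were -0.78 for globin and 1.06 for membrane genes against the CD71 sort culture and -0.95 for leukocyte genes against the CD71/CD24a sort culture. Centred by GC, 879 genes were lower than in the CD71/CD24a sort culture, 39 lay below both fresh libraries, and the membrane median was 1.02. The cause was not tested. With no scaling the median of all genes against the CD71/CD24a sort culture was -0.24, against -0.14 as reported. No paired analysis was possible because each condition is 1 library and no test was made. Depth limits genes under the 3-read level, where a low value in CFU-E can rest on single reads.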

Other observations

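The cultures with dexamethasone or the hydroxylase inhibitor DMOG, which enter no comparison above, were read for the cholesterol list and for some genes that lay outside the fresh range in the water cultures. The median of the cholesterol list, fresh CFU-E minus culture, was -2.62 for the CD71 sort with dexamethasone, -2.70 for the CD71/CD24a sort with dexamethasone, -2.77 with dexamethasone and DMOG and -2.84 with DMOG. Mvd was at 174, 105, 85.8 and 117 normalised RPKM in these cultures in that order. Aqp1 was at 47.3, 21.5, 19.5 and 14.2 in them, against 198 in fresh CFU-E and 219 in fresh BFU-E. Acp5, below both fresh libraries in the water cultures, was at 19.6 in the CD71 sort with dexamethasone, between 78.6 in fresh CFU-E and 15.4 in fresh BFU-E, and at 5.27, 5.27 and 2.02 in the others. Tfrc was at 114, 167, 177 and 233, with 104 in fresh CFU-E.

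Alpha globin Hba-a1 was at 98.7 normalised RPKM in the CD71 sort culture with dexamethasone and at 1.69 to 5.12 in the cultures of the CD71/CD24a sort.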
